A study of Arabidopsis thaliana with 6 samples.

Results

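The 9 genes described here encode the enzymes and helper proteins that carry the plant flavonoid pathway from its first committed step to glycosylated flavonols in Arabidopsis thaliana. They are CHS, CHI, CHIL, F3H, F3'H, FLS1, UGT78D1, UGT78D2 and UGT89C1, taken by their gene identifiers out of 27655 genes in the deposited expression table. They were chosen by their lower TPM in h3.3ko;HTR5 than in wild type, so the values of that difference are given as a description with no test. RNA-seq was done on whole seedlings aged 10 days, grown at 22 °C in 16 h of light and 8 h of dark. One group was wild type of the Col background (3 libraries) and the other was a line labelled h3.3ko;HTR5 (3 libraries), whose name joins a knockout of the histone variant H3.3 with HTR5, an H3.3 gene. How that line was made, and what drives any introduced HTR5 copy, is not stated in the labels. Nothing in them says whether replicates are separate cultures, so each p-value rests on the spread among these 6 libraries alone, and that spread may be technical.

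Flavonoids are phenolic compounds of the plant epidermis and vacuole, known as sunscreens against ultraviolet light, as pigments and as modulators of auxin transport. Chalcone synthase joins coumaroyl-CoA with malonyl-CoA, and chalcone isomerase, flavanone hydroxylase and flavonol synthase then turn the product into flavonols, which glycosyltransferases decorate with sugars. In Arabidopsis the genes of this early part are known to be switched on by light through the transcription factor HY5 and by the flavonol regulators MYB11, MYB12 and MYB111, whereas the later anthocyanin genes depend on a complex of MYB, bHLH and WD40 proteins.

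The libraries held 13792031 to 14498093 reads recovered from the deposited TPM (a read number scaled by gene length and by library total). HTR8, an H3.3 gene, stood in h3.3ko;HTR5 at 1.45% of its wild type mean, HTR4 at 47.0% and HTR5 at 71.5% (limma adjusted p = 4.08e-09, 5.06e-07 and 7.70e-05). Shoot and root markers were both present, as the whole-seedling label says. The summed level of 3 shoot markers was 53780 to 57760 TPM in wild type and 58950 to 61080 TPM in h3.3ko;HTR5, and that of 4 root markers was 1961 to 1981 and 1744 to 1928 TPM. PYK10 made up most of the root sum, with means of 1934 and 1775 TPM, and did not pass (limma adjusted p = 0.0786). Nor did the other root markers, of which EXPA7 stood at 115.6% of its wild type mean, PRP3 at 120.5% and COBL9 at 86.2%. Of the shoot markers RCA was higher, at 112.2% of its wild type mean (limma adjusted p = 0.0112), and the other 2 did not pass. The 4 flower markers, too low for the test, summed to 0.746 to 1.17 TPM in wild type and 0.184 to 0.321 TPM in h3.3ko;HTR5. The 5 seed coat genes of the proanthocyanidin branch, also too low, summed to 1.69 to 2.21 and 0.891 to 1.63 TPM, with TT2 listed at 0 throughout. The 4 seed storage markers summed to 0.381 to 1.14 TPM in wild type and to 4.77, 1.36 and 8.88 TPM in h3.3ko;HTR5 replicates 1 to 3. CRA1, the only 1 of them tested, rose from 0.649 ± 0.237 to 3.08 ± 1.74 TPM (SD, n = 3, limma adjusted p = 0.0292). In all comparisons a lower level can come from fewer cells that express a gene or from less RNA per cell, which cannot be told apart in whole seedlings.

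All 9 genes were lower in h3.3ko;HTR5, and for each gene every h3.3ko;HTR5 library lay below every wild type library. Their summed level was 1760 ± 31.3 TPM (SD, n = 3) in wild type and 1092 ± 113.8 TPM in h3.3ko;HTR5, 62.1% of wild type. CHS supplied 44.4% of the wild type sum. All 9 also lay past the threshold of the test over all genes (limma on log2(TPM + 1), adjusted p under 0.05) with a lower value, where the background share of lower genes was 8.32%, and 20.4% of all tested genes had groups that do not overlap in this direction. Since this difference chose the genes, nothing is read from these counts. The median log2 fold change was -0.68 over the 9 genes and -0.03 over all 19013 tested genes, and single values ran from -0.81 for FLS1 to -0.31 for UGT78D1.

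**Figure D1:**
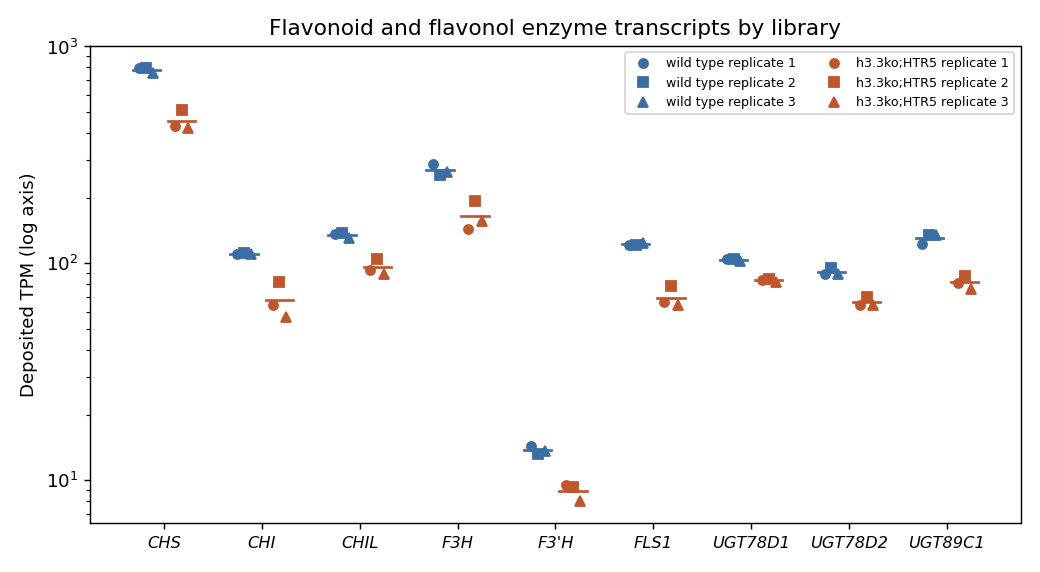
Deposited TPM on a log axis for the 9 genes in pathway order, with 1 point per library and a line at the mean of each group (3 wild type, 3 h3.3ko;HTR5). In each gene the 3 h3.3ko;HTR5 points lie below the 3 wild type points, and CHS is the most abundant and F3'H the least.

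CHS, which encodes chalcone synthase, the entry enzyme (AT5G13930, chromosome 5, 4488476 to 4490264, plus strand, TAIR10.1), had 794, 799 and 753 TPM in the wild type libraries (replicates 1 to 3, an order kept below) against 428, 512 and 422.5 TPM in h3.3ko;HTR5. All 3 h3.3ko;HTR5 libraries were far under the lowest wild type library, and replicate 2 was the highest of them. The log2 fold change was -0.79 ± 0.07 (SE), and 58.1% of the wild type mean was left. CHS rested on 8430 to 9188 reads per wild type library and 4771 to 6043 in h3.3ko;HTR5.

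CHI encodes chalcone isomerase, which closes the flavanone ring (AT3G55120, chromosome 3, 20430059 to 20431597, minus strand). Wild type had 110.0, 111.5 and 110.7 TPM, against 64.1, 81.9 and 56.6 TPM for h3.3ko;HTR5. The wild type libraries nearly coincided, with a coefficient of variation of 0.669% against 3.04% from counting alone, while h3.3ko;HTR5 spread by 19.3%, the widest of the 9 genes. The log2 fold change was -0.72 ± 0.11 (SE).

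CHIL encodes a chalcone isomerase-like protein without isomerase activity that promotes flavonoid production (AT5G05270, chromosome 5, 1563286 to 1565324, plus strand). Its wild type libraries were at 136.9, 138.5 and 131.4 TPM and its h3.3ko;HTR5 libraries at 93.35, 105.0 and 89.2 TPM. It kept 70.7% of the wild type mean, more than CHI with 61.0% (log2 fold change -0.50 ± 0.06 SE). The ratio of CHI to CHIL TPM was 0.803, 0.805 and 0.842 in wild type and 0.687, 0.781 and 0.635 in h3.3ko;HTR5, lower in all 3. The coding sequences of CHI and CHIL, 741 and 630 bases long, were 58.0% identical over 612 aligned bases, and neither gene shared an exon window of 50 bases with another place in the genome.

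F3H encodes flavanone hydroxylase, which makes dihydroflavonols (AT3G51240, chromosome 3, 19025192 to 19026872, plus strand). Its levels were 286, 257 and 264 TPM in wild type against 144.5, 193.6 and 156.1 TPM in h3.3ko;HTR5 (log2 fold change -0.71 ± 0.09 SE). Here h3.3ko;HTR5 replicate 1 was the lowest library, unlike in CHS and CHI, where replicate 3 was. F3'H encodes the P450 enzyme that adds the hydroxyl group separating quercetin from kaempferol (AT5G07990, chromosome 5, 2560328 to 2563137, plus strand). It was by far the least abundant of the 9, with 14.4, 13.25 and 13.7 TPM in wild type against 9.495, 9.33 and 8.01 TPM in h3.3ko;HTR5 (log2 fold change -0.57 ± 0.09 SE). With 142 to 261 reads per library its spread between replicates, 4.06% in wild type and 9.13% in h3.3ko;HTR5, was close to the 6.38% and 7.85% of counting alone.

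FLS1 encodes the main flavonol synthase (AT5G08640, chromosome 5, 2803833 to 2805606, plus strand). Wild type libraries were at 121.1, 121.9 and 123.8 TPM, and h3.3ko;HTR5 libraries at 66.1, 78.7 and 64.0 TPM. It kept the smallest share of the 9, 56.9% of the wild type mean (log2 fold change -0.81 ± 0.07 SE). FLS1 and DFR, the first enzyme of the anthocyanin branch, use the same dihydroflavonols. The ratio of FLS1 to DFR TPM was 2.1, 2.03 and 2.205 in wild type, and 2.265, 2.57 and 2.15 in h3.3ko;HTR5, so the groups overlapped in this ratio.

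Of the 3 glycosyltransferase genes, UGT78D1 and UGT78D2 kept the largest shares of the 9 genes, while UGT89C1 lay at the median fold change. UGT78D1 encodes an enzyme that adds rhamnose to flavonols (AT1G30530, chromosome 1, 10814612 to 10816615, plus strand), and had 105.0, 104.3 and 102.9 TPM in wild type against 83.4, 85.1 and 82.3 TPM in h3.3ko;HTR5 (log2 fold change -0.31 ± 0.04 SE). Replicates of both groups were nearly level, with spreads of 1.06% and 1.68%, below the 2.75% and 3.04% of counting alone. Each h3.3ko;HTR5 library kept 79.1% to 81.8% of the wild type mean, above every h3.3ko;HTR5 library of the other 8 genes, of which the highest was CHIL in replicate 2 at 77.4%.

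UGT78D2 encodes a glucosyltransferase that acts on flavonols and anthocyanidins at the position UGT78D1 also uses (AT5G17050, chromosome 5, 5607788 to 5609589, minus strand). The wild type libraries held 89.6, 94.8 and 89.3 TPM and those of h3.3ko;HTR5 64.1, 70.1 and 64.5 TPM, with no overlap (log2 fold change -0.46 ± 0.05 SE). The coding sequences of the 2 genes were 81.6% identical over 1357 aligned bases, yet only 1 of 1522 exon windows of UGT78D2 occurred elsewhere in the genome and none of UGT78D1. UGT78D3, another close relative that adds arabinose, had 1 read in all 6 libraries together.

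UGT89C1 encodes the rhamnosyltransferase that acts on a second hydroxyl of flavonols (AT1G06000, chromosome 1, 1820308 to 1821894, minus strand). Its wild type libraries reached 123.1, 135.6 and 135.7 TPM, and none of the h3.3ko;HTR5 libraries, at 81.0, 87.9 and 76.5 TPM, came near them (log2 fold change -0.68 ± 0.06 SE). It kept 62.2% of wild type, less than the pair of UGT78 genes. The annotation places a noncoding gene on the opposite strand over 99.6% of UGT89C1 and over 94.5% of F3H, and since no source says whether counting used strand, reads of such partners cannot be told apart from those of these 2 genes. The overlap of CHS with AT5G13940 is 2 bases long, and that gene stayed at or below 0.144 TPM.

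**Figure D2:**
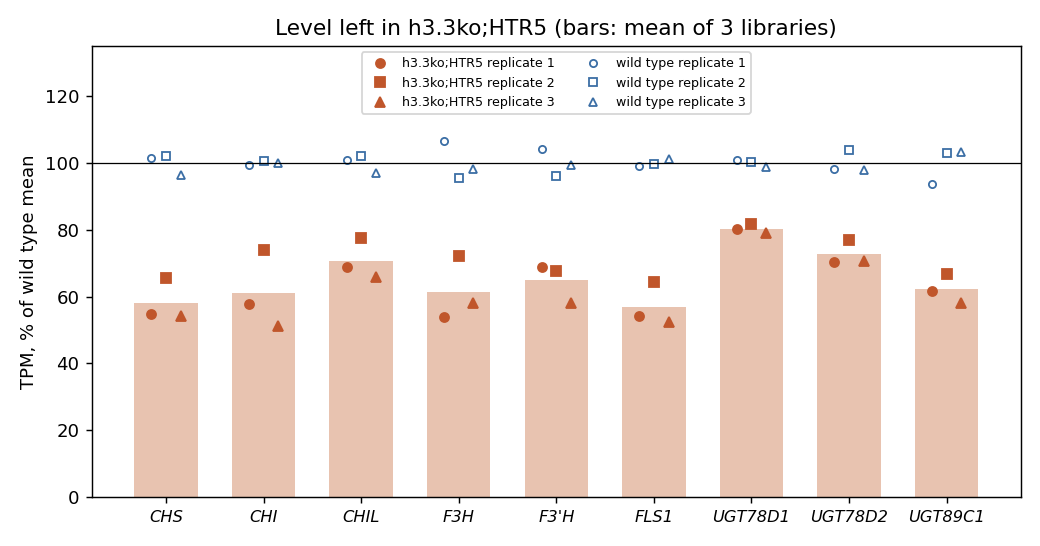
TPM in each library as a percentage of the wild type mean of that gene, with bars for the h3.3ko;HTR5 mean, filled points for the 3 h3.3ko;HTR5 libraries and open points for the 3 wild type libraries. UGT78D1 lies highest at 80.3% and FLS1 lowest at 56.9%, and h3.3ko;HTR5 replicate 2 is the highest h3.3ko;HTR5 point in 8 of 9 genes.

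Across libraries, h3.3ko;HTR5 replicate 2 was the highest of its group in 8 of the 9 genes, F3'H being the exception, and replicate 3 the lowest in 7. Wild type showed no such order, with replicates 1, 2 and 3 highest in 3, 4 and 2 genes. The summed level of the 9 genes was 1034, 1224 and 1020 TPM in h3.3ko;HTR5 replicates 1 to 3. The sum of the 4 seed storage markers ran in the opposite order over these libraries, and its part in the difference was not tested. Without h3.3ko;HTR5 replicate 2 the median log2 fold change of the 9 genes was -0.73, and without replicate 3 it was -0.60.

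By wild type level per gene span, the order was CHS (782 TPM), F3H (269), CHIL (135.6), UGT89C1 (131.5), FLS1 (122.3), CHI (110.7), UGT78D1 (104.1), UGT78D2 (91.2) and F3'H (13.8). CHIL and UGT89C1 overlapped in their wild type libraries, as did UGT89C1 and FLS1, and all other neighbours in this order were apart. The deposited values were scaled by the full span of a gene, introns included, which lowers genes with long introns such as CHIL, where introns are 32.1% of the span, F3'H (31.4%) and CHI (27.8%). With the length of exons in its place CHI moved up to rank 4 at 116.6 TPM, ahead of FLS1 at 102.0 TPM, and UGT89C1 dropped to rank 6, overlapping FLS1, while the other ranks stayed. The fold changes moved by little, as their median was -0.67 with exon length.

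The promoters of the 9 genes were searched for motifs bound by the known regulator families, from 250 bases before to 50 after the annotated gene start (RefSeq annotation, TAIR10.1). The motifs, on both strands, were the G-box CACGTG, the core ACGT that basic leucine zipper factors such as HY5 recognise (contained in every G-box), and several MYB forms. Of the MYB forms, ACCTACC was present in UGT89C1 and in 1.38% of all windows. The form ACCAACC was in none of the 9 and in 3.29% of all. ACCTAAC was found in CHIL and in 2.88% of all windows. The last form, ACCAAAC, was found in FLS1 and UGT89C1 and in 9.90% of all. A G-box was present in 4 of the 9 windows (CHS, CHI, CHIL and F3H), and in 7.68% of 27444 windows of all genes. The ACGT core was present in 6 of 9, against 49.9% of all. Any MYB form was present in 3 of 9 windows, against 16.3% of all, and the windows of F3'H, UGT78D1 and UGT78D2 held neither kind. The E-box CANNTG, which includes the G-box, was present in 6 of 9 against 61.7% of all, and TATAAA in 7 of 9 against 52.1%. These are matches of letters, not measured binding. The window rests on the annotated gene start, which was not checked against where transcription begins. In CHS, CHI and UGT78D2 a TATAAA match on the gene strand began 10, 11 and 29 bases after that start. Motifs farther than 50 bases inside a gene were not searched, so a motif absent here may lie outside the window. The 250 bases before the start are shown for 4 genes, CHS and F3H as the promoters with most ACGT cores, UGT89C1 with both motif kinds and UGT78D1, the gene that kept most of its level, with none. Capitals mark ACGT cores and MYB forms, and each sequence reads 5′ to 3′ toward the gene. They lie at chr5:4488226-4488475 (plus strand), chr3:19024942-19025191 (plus strand), chr1:1821895-1822144 (minus strand) and chr1:10814362-10814611 (plus strand).
CHS: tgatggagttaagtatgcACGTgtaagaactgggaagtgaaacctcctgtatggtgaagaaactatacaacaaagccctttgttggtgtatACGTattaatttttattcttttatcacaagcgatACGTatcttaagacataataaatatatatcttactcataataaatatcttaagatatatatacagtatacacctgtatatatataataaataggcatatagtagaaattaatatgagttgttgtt
F3H: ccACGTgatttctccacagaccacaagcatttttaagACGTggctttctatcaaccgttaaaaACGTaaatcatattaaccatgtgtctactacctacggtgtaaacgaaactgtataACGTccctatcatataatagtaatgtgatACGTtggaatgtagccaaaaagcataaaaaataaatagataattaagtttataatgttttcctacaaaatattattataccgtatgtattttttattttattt
UGT89C1: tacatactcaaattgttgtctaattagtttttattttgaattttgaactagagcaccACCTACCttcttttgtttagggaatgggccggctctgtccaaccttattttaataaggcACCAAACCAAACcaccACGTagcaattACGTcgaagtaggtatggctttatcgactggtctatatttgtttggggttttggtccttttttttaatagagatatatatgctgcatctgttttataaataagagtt
UGT78D1: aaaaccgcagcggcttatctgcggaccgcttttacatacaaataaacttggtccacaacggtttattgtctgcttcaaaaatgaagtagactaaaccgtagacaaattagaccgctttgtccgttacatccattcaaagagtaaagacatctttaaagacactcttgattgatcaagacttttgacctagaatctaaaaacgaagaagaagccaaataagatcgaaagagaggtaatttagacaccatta

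**Figure D3:**
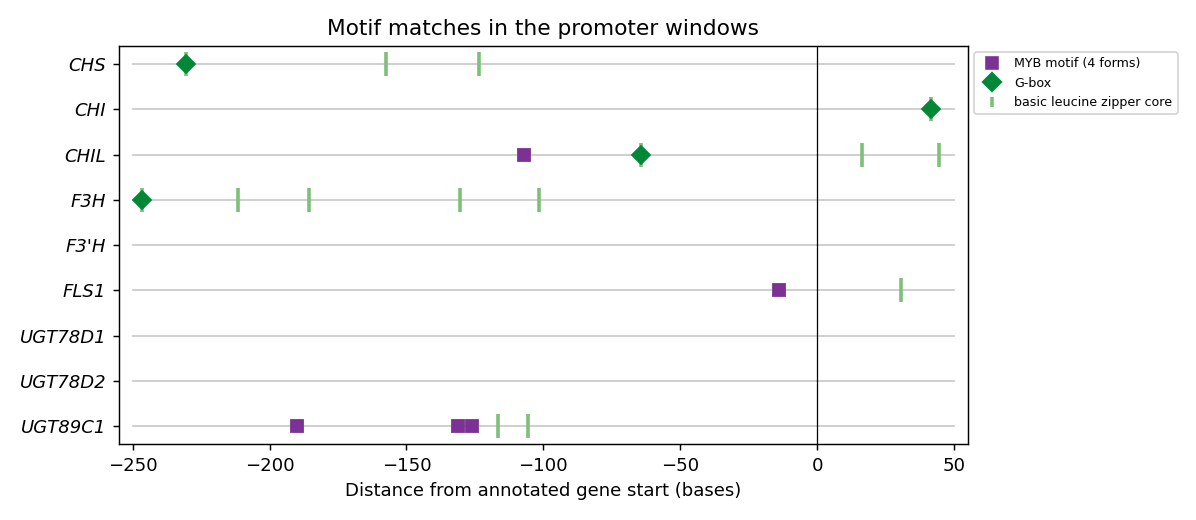
Positions of motif matches in the promoter window of each gene, as the distance in bases from the annotated gene start (0), with squares for MYB forms, diamonds for the G-box and ticks for the core shared by basic leucine zipper sites. CHS and F3H carry the G-box near the far end of the window, CHIL nearer the start and CHI after it, and 3 genes show no match.

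The nearest genes in the table on either side of each of the 9 genes gave a comparison by position. Of these 18 neighbours 14 were tested, of which 1 was lower, none higher and 13 did not pass (background 8.32% lower and 3.70% higher), with a median log2 fold change of -0.00072 over the 14. The 1 lower neighbour was ABCG19, a transporter gene beside CHI, which fell from 32.5 ± 2.63 to 23.5 ± 2.06 TPM (SD, n = 3, log2 fold change -0.45, limma adjusted p = 0.00697). ABCG18, a related gene on the other side of CHI, stood at 8.61 ± 1.04 and 6.10 ± 1.13 TPM, with groups that did not overlap, and did not pass (log2 fold change -0.45, limma adjusted p = 0.0627). The neighbours of FLS1, which kept the smallest share, had wild type means of 9.96 and 65.7 TPM against 11.85 and 66.6 TPM in h3.3ko;HTR5, and neither passed (limma adjusted p = 0.117 and 0.859).

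Around these genes, 87 further genes of the pathway and its surroundings were taken in 9 lists. Of the 72 tested, 25 fell, 3 rose and 44 did not pass (background 8.32% lower and 3.70% higher over all tested genes, 12.0% in both directions). Their median log2 fold change was -0.15. The count that changed, 28, was 18 when wild type replicate 2 was omitted and 16 when h3.3ko;HTR5 replicate 3 was. Quantile normalization moved the background split over all tested genes from 703 higher and 1582 lower to 1005 higher and 1171 lower, and the split of the pathway genes to 3 higher and 21 lower.

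Upstream, in the general phenylpropanoid steps that make coumaroyl-CoA, 4 of 9 genes fell and none rose. PAL1, encoding the major phenylalanine ammonia-lyase, fell from 314 ± 6.84 to 240 ± 7.40 TPM (SD, n = 3, limma adjusted p = 4.11e-04). 4CL1, a coumarate CoA ligase gene, kept 84.7% of its wild type level (limma adjusted p = 0.00600, and 0.0636 when the variance prior had no trend). 4CL3, the ligase isoform linked to flavonoids, fell from 16.65 ± 0.197 to 10.7 ± 0.977 TPM (SD, n = 3) with a log2 fold change of -0.60 ± 0.08 (SE, limma adjusted p = 0.00189). The cinnamate hydroxylase gene C4H, shared with lignin synthesis, stood at 495 ± 35.7 and 466 ± 23.0 TPM and did not pass (limma adjusted p = 0.377). PAL2, another ammonia-lyase gene named after its values were seen, also fell (limma adjusted p = 0.00573, and 0.0640 with no trend). The median log2 fold change of these 9 genes was -0.23.

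Downstream, 7 of 10 late anthocyanin genes fell and none rose, with a median log2 fold change of -0.56. LDOX, encoding anthocyanidin synthase, fell from 60.9 ± 5.92 to 28.95 ± 5.99 TPM (SD, n = 3) and the malonyltransferase gene 5MAT from 12.1 ± 1.87 to 5.13 ± 0.602 TPM (limma adjusted p = 7.97e-04 and 6.57e-04). TT19, a glutathione transferase gene needed for anthocyanin transport, kept 40.8% of its wild type mean and DFR 51.5% (limma adjusted p = 1.63e-04 and 1.29e-05), both below the 56.9% of FLS1 in these libraries. LDOX at 47.55% and 5MAT at 42.4% also lay below FLS1. UGT79B1, UGT75C1 and SCPL10, named after their values were seen, fell but kept more, 61.05%, 69.5% and 85.5%. The list median of -0.56 was a smaller drop than the -0.68 of the 9 genes. Whether the branches differ was not tested. The acyltransferase genes 3AT1 and 3AT2, named after their values were seen, did not pass (limma adjusted p = 0.1955 and 0.375), and share 39.9% and 40.8% of their exon windows with another place in the genome.

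**Figure D4:**
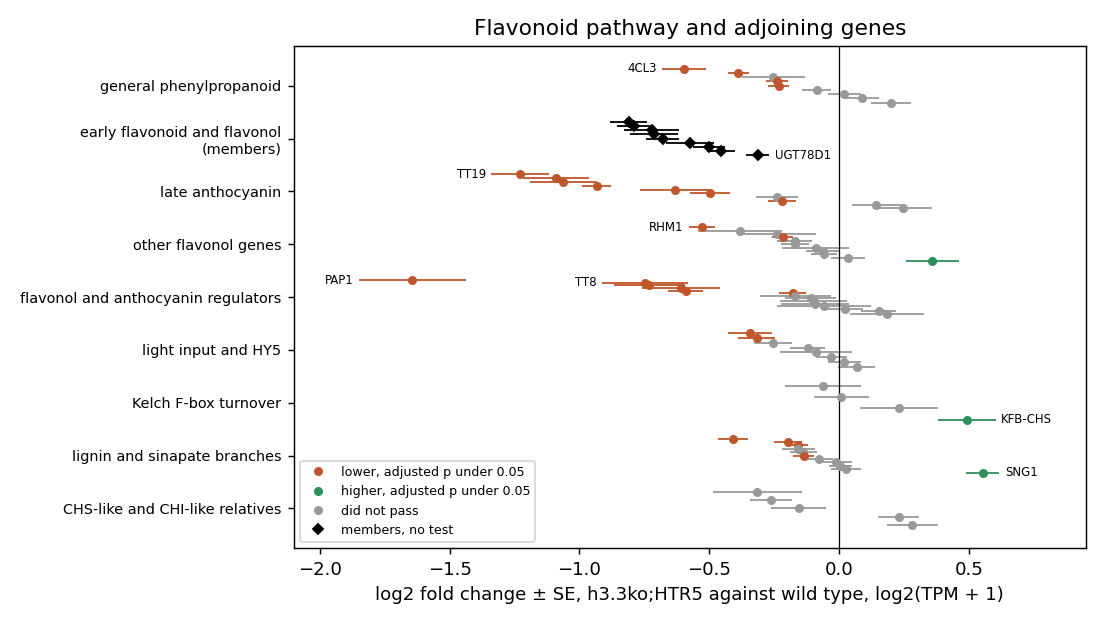
Log2 fold change with its SE for the tested genes of each list, with members of the early flavonoid and flavonol group as black diamonds without a test and other genes coloured by the test over all genes. PAP1 lies farthest to the left, followed by TT19, 5MAT, LDOX and DFR of the late anthocyanin list, whose 3AT1 and 3AT2 lie to the right of 0, while KFB-CHS and SNG1 lie to the right of 0.

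Among 13 other flavonol genes 11 were tested, of which 2 fell, 1 rose and 8 did not pass. RHM1, which encodes the main enzyme making UDP-rhamnose, the sugar donor of UGT78D1 and UGT89C1, held 288.3, 287.8 and 287.6 TPM in wild type against 192.6, 216.1 and 190.6 TPM in h3.3ko;HTR5. Its groups were far apart (log2 fold change -0.53 ± 0.05 SE, limma adjusted p = 2.86e-04). RHM1 overlaps AT1G09823 and AT1G78580 in the annotation. OMT1, a methyltransferase gene of flavonols and lignin precursors, fell from 346 ± 13.4 to 297 ± 3.82 TPM (limma adjusted p = 0.00788, and 0.0804 with no trend). UGT73C6, encoding a flavonol glucosyltransferase, was higher at 26.4 ± 2.34 TPM against 20.4 ± 2.67 TPM in wild type (limma adjusted p = 0.0452). Leaving out replicate 2 or 3 of either group ended this call (adjusted p = 0.0985 to 0.148), as did dropping the filter on low values, a replicate block or no trend (adjusted p = 0.0731, 0.0721 and 0.106).

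The FLS1 relatives did not pass the test, though in FLS2 and FLS3 every h3.3ko;HTR5 library lay below every wild type library. Of all tested genes 20.4% did so. FLS3 stood at 24.1 ± 1.05 TPM in wild type against 21.3 ± 0.503 TPM, FLS5 at 51.5 ± 1.72 and 52.9 ± 4.22 TPM and FLS2 at 2.71 ± 0.473 and 1.85 ± 0.303 TPM (SD, n = 3, limma adjusted p = 0.130, 0.789 and 0.162). The coding sequence of FLS1 was 75.2% identical to that of FLS3 and 69.5% to that of FLS5, and none of them shared an exon window with another place in the genome. FLS6 was listed at 0 in all libraries. Among the 6 distant relatives of CHS and CHI, 5 were tested and none passed with limma. At an unadjusted p under 0.05 there were 3, voom on the recovered reads called 1 higher, and the count was also 1 without wild type replicate 3 (higher) and when h3.3ko;HTR5 replicate 2 was omitted (lower).

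Of 19 regulator genes 14 were tested, of which 6 fell, none rose and 8 did not pass. MYB12, the flavonol activator of roots and seedlings, was at 4.54, 5.13 and 4.15 TPM in wild type against 2.32, 2.73 and 2.08 TPM in h3.3ko;HTR5, a mean of 51.7% of wild type (log2 fold change -0.73 ± 0.14 SE, limma adjusted p = 0.00759). MYB111 and MYB11, its partners, were below the filter for testing, with 64 and 20 reads over the 3 wild type libraries and 31 and 12 reads in h3.3ko;HTR5. The anthocyanin activator PAP1 kept 23.7% of wild type (log2 fold change -1.64 ± 0.21 SE, limma adjusted p = 9.43e-04). TT8, its bHLH partner, fell from 2.32 ± 0.315 to 0.977 ± 0.172 TPM (limma adjusted p = 0.0165), but did not pass if h3.3ko;HTR5 replicate 1 or 3, or else replicate 2 or 3 of wild type, was omitted (adjusted p = 0.0508 to 0.0694). MYB4 and MYB7, known as repressors in this pathway, and LBD37 also fell, and were named after their values were seen. MYB4 stood at 35.7 ± 1.71 and 23.4 ± 1.09 TPM (limma adjusted p = 5.61e-04). MYB7 did not pass with replicate 3 of either group or replicate 2 of h3.3ko;HTR5 left out (adjusted p = 0.0572 to 0.0952), and LBD37 with any library left out (adjusted p = 0.0606 to 0.155). Only 3 regulators passed with replicate 3 of either group omitted, and 4 or 5 with any other library omitted. The WD40 gene TTG1 stood at 32.2 ± 2.07 and 32.7 ± 2.02 TPM (limma adjusted p = 0.876, also named after its values were seen).

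Of 8 genes of light input 2 fell and 6 did not pass. HY5 had 30.5, 26.4 and 27.0 TPM in wild type against 22.4, 21.9 and 22.4 TPM in h3.3ko;HTR5 (log2 fold change -0.32 ± 0.07 SE, limma adjusted p = 0.0185). Its groups did not overlap, yet the call was lost without h3.3ko;HTR5 replicate 2 or 3 (adjusted p = 0.0554 and 0.0592). BBX22, a B-box partner of HY5, fell to 77.6% of wild type (log2 fold change -0.34 ± 0.09 SE, limma adjusted p = 0.0291). It no longer passed when h3.3ko;HTR5 replicate 1 or 3, or replicate 1 or 2 of wild type, was omitted (adjusted p = 0.0729 to 0.0985), with a replicate block (0.0524) or with no trend (0.0560). Without h3.3ko;HTR5 replicate 3 none of the 8 passed, while 3 did without wild type replicate 3, with voom or with exon length. HYH, named after its values were seen, had non-overlapping groups and did not pass (limma adjusted p = 0.0524). It passed as lower in those settings and with a replicate block (adjusted p = 0.0127 to 0.04375).

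Of 5 Kelch F-box genes, whose products target phenylpropanoid enzymes for degradation, 4 were tested and 1 rose. It was KFB-CHS, whose protein is known to bind chalcone synthase, with 313, 265 and 274 TPM in wild type against 325, 458 and 427 TPM in h3.3ko;HTR5 (log2 fold change 0.49 ± 0.11 SE, limma adjusted p = 0.0184). The lowest h3.3ko;HTR5 library lay just above the highest wild type library. It did not pass once replicate 2 or 3 of either group was left out (adjusted p = 0.0581 to 0.0748), nor with no trend (adjusted p = 0.0838).

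In the lignin and sinapate branches, which draw on the same coumaroyl-CoA, 4 of 11 tested genes fell, 1 rose and 6 did not pass. SNG1, encoding the enzyme that makes sinapoylmalate, another ultraviolet screen of leaves, rose from 207 ± 17.0 to 305 ± 16.9 TPM (SD, n = 3) with a log2 fold change of 0.55 ± 0.06 (SE, limma adjusted p = 5.99e-04). UGT84A2, which makes sinapoylglucose, the substrate of SNG1, fell from 65.4 ± 2.01 to 49.1 ± 2.82 TPM (limma adjusted p = 0.00194). FAH1, a hydroxylase gene of the sinapate branch, fell from 158.3 ± 8.62 to 138.1 ± 5.97 TPM (limma adjusted p = 0.0416), which held only when wild type replicate 3 was the one left out. Leaving out each of the other 5 gave an adjusted p of 0.0665 to 0.124, and quantile normalization gave 0.174. Quantile normalization, or omitting h3.3ko;HTR5 replicate 1 or 3 or replicate 2 of wild type, left 1 of the 11 lower and 1 higher. Omitting h3.3ko;HTR5 replicate 2 or replicate 1 of wild type left 2 lower.

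The genes whose profile over the 6 libraries was most like the mean profile of the 9 genes were looked for among the other 19004 tested genes. By Pearson's r with the mean of their z-scores of log2(TPM + 1), 4CL3 came first (r = 0.999) and RHM1 second (r = 0.999). After them came IPT5, AT2G41090, AT3G48510, HAM2, CDC6, SDH1-1, AT1G77840 and AT3G20370, down to r = 0.997. These profiles hold the difference between the genotypes, and 561 genes exceeded an r of 0.95, so the order is a description of 6 libraries. Among deviations from each genotype's mean alone, these 10 genes ran from an r of 0.946 for AT3G20370 to 0.990 for IPT5. 4CL3 had 0.978, HAM2 0.975, AT3G48510 0.973 and RHM1 0.972, so the 2 pathway genes did not stand apart. The 9 genes themselves, each of which is part of the mean profile, ran from 0.569 for F3'H to 0.987 for CHI. In the late anthocyanin list LDOX had 0.892 and DFR 0.546, and of the regulators MYB12 had 0.819 and HY5 -0.14. Seen afterwards, UGT75C1 and LBD38 of the same lists had 0.919 and 0.840, and FLS5 had 0.944, although LBD38 and FLS5 did not pass. How many of all genes reach such an r over deviations was not counted.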

How the data were processed

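RNA of whole seedlings was sequenced as 6 libraries. Per the submitters' processing notes, the TAIR10 build was used with HISAT2 2.1.10, fastp 0.20.1 and DESeq2 1.26.0. The counting program, its handling of strand and the gene models were not given in the sources used here. Values were deposited by the authors as TPM, which sum to 1000000 in each library, and columns were matched to samples by name.

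With the full gene span of the TAIR10.1 annotation as length, the deposited TPM gave whole numbers of reads in every library for 22980 of 22985 genes (99.98%) within 0.02 reads. Only 10 of 19089 genes with introns did so with exon length. Coordinates are TAIR10.1, whose nuclear chromosomes are those of TAIR10.

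The test was limma 3.58.1 (in R 4.3.3), applied to log2(TPM + 1) of the 19013 genes whose TPM averaged 1 or more, with a trend in the variance prior, no replicate block, two-sided, with Benjamini-Hochberg adjustment over all tested genes and a threshold of 0.05. This scale understates changes of low genes. The procedure was also run on simulated counts, drawn with the same spread for all genes and no library order shared between genes. That setting is simpler than these data. Replicate numbers did not pair the libraries. Coding sequences were aligned globally, since no protein sequences were used here.

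The 9 genes and all lists were chosen with earlier results of these data known. Genes named were the 9 and, in each list, up to 3 called genes with the largest change, plus preset pathway genes, neighbours and the 10 most alike profiles. The alternatives were a pseudocount of 0.1, no filter, each library left out, a replicate block, quantile normalization, no trend, voom on recovered reads and TPM from exon length.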

Additional observations from a re-analysis of the deposited data

How the results depend on the processing

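The 9 early flavonoid and flavonol genes were chosen by this difference in these same 6 libraries, so their values under the 13 alternatives describe the processing and are no independent sign of stability. All 9 were lower in each, and their 117 recomputed log2 fold changes ran from -0.90 to -0.25, and the value of UGT78D1 after quantile normalization (-0.25) was the only one that moved by more than the spread between replicates. The count of changed genes over all tested, 2285, ranged from 1289 (without h3.3ko;HTR5 replicate 3) to 2068 with 1 library left out, and was 1464 without wild type replicate 2 and 1443 when the variance prior had no trend. The count of other pathway genes that changed, 28, fell to 18 without wild type replicate 2, to 16 without h3.3ko;HTR5 replicate 3 and to 16 with no trend, and was at most 24 when 1 library was left out. The same-numbered libraries deviated together with a correlation of -0.04, 0.02 and -0.01, and with a replicate block 1851 genes changed and the 9 genes stayed lower. The lowest r of the 10 most alike genes was 0.997 over the values and 0.946 over deviations from the genotype mean, and 1 of these 10 was among the 10 highest by deviations. In the 250 bases before the start alone, TATAAA was present in 4 of the 9 windows in place of 7 (47.4% of all windows). The ACGT core was then in 4 in place of 6 (44.1% of all) and the G-box in 3 in place of 4 (6.49% of all). The counts for any MYB form and for the E-box stayed. Protein identity was not run. Of the 9 genes F3'H had the fewest recovered reads (142 to 261 per library) and so the largest counting error.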
